A study of Mus musculus with 14 samples.

Results

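The apolipoproteins are the proteins that give lipoprotein particles their shape and steer their traffic, and 10 genes that encode them were followed here in mouse liver: Apoa1, Apoa2, Apoa4, Apoa5, Apob, Apoc1, Apoc2, Apoc3, Apoe and Apom. They were chosen by name, as rows of the deposited expression table, and all 10 were found among its 55427 genes. Each had a level of at least 1 in all 14 libraries, so all 10 passed the filter on low values and were tested. Levels are given as scaled FPKM. FPKM divides the fragments of a gene by its exon length and by the size of the library, so that genes of different length can be set side by side, and the values were scaled further between libraries.

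The libraries came from whole livers of male mice on a C57B6 background, 8 to 10 weeks old by the labels and fed for 14 weeks. Chow and 2 other diets were compared in mice with the RAGE flox genotype (RAGE fl/fl, the gene for the receptor of advanced glycation end-products flanked by loxP sites), namely a fast-food diet (FFD) and the HiAD, which is the FFD after cooking and is rich in advanced glycation end-products (AGEs), both given with high-fructose water. A further group of RAGE flox mice had the HiAD and, starting in week 5, was injected intraperitoneally each day with 60 mg per kg of pyridoxamine (PM), which blocks the formation of AGEs. The remaining group had the HiAD in mice of the genotype RAGE flox/Alb cre, labelled RageHepKO, in which an albumin promoter drives Cre recombinase in hepatocytes. There were 3 libraries in each group, except 2 for HiAD + PM. All 5 groups carried the floxed allele, the RNA was of whole tissue, and non-hepatocytes would keep the gene in the RageHepKO livers.

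Ager, which encodes RAGE, was read first because it checks the labels. It was 1.71, 2.15 and 0.801 scaled FPKM in chow livers, 2.78, 2.68 and 2.47 in FFD livers, 2.75 and 2.49 with PM, and 0.184, 0.0811 and 0.14 in HiAD livers, although all of these mice were floxed without Cre. The RageHepKO libraries held 0.198, 1.9 and 1.83. This goes against the labels when these libraries are set beside the HiAD libraries, which held less Ager than every other library. The former are called the libraries labelled RageHepKO throughout. Each direction drawn from them or from the HiAD libraries rests on the labels. Mitochondrial genes took 24.3% to 53.1% of summed FPKM in them and 6.06% to 24.1% in the other 11 libraries. The low values of a library fell on multiples of a common step, and if a step is a fragment the libraries held about 7840000 to 11700000 assigned fragments each. By that estimate the thinnest value of any of the 10 genes, Apom in library RA19, rested on about 21 fragments. Ager rested on about 2 to 4 fragments in the HiAD libraries and 3 to 39 in those labelled RageHepKO. Its check of the labels is therefore near the floor. Between these groups its log2 fold change was 0.92 (adjusted p = 0.0336 from limma), a call that 8 alternatives lost. Ager was also lower in HiAD than in FFD livers (-1.68, adjusted p = 0.00952), under all 27 alternatives. It was higher with PM than in HiAD livers (1.67, adjusted p = 0.0113), a call that 2 alternatives lost. The difference between HiAD and chow did not pass (-1.13, adjusted p = 0.0507). All 10 hepatocyte markers were detected in each group. Their summed level was 13640.2 to 17853.5 scaled FPKM except in the highest chow library, at 44040 beside a chow median of 15857. Of the 10 markers, 3 were higher and 3 lower in the libraries labelled RageHepKO than in the HiAD libraries, beside 15.7% and 17.7% of all genes tested. The summed level of 6 cholangiocyte markers was 91 to 145 in the HiAD libraries and 15.3 to 36.3 in the other 11. In the HiAD libraries Spp1 alone was 84.3 to 137, Epcam and Sox9 reached 3.32 and 4.06, and Krt19, Krt7 and Cftr stayed below 1. The part of this sum in any difference described here was not tested.

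Liver sends triglyceride and cholesterol out in very-low-density lipoprotein (VLDL), built on a single molecule of apolipoprotein B, and it supplies most of the apolipoprotein A-I around which high-density lipoprotein (HDL) forms. The smaller apolipoproteins exchange between particles, where they switch lipoprotein lipase on (C-II) or hold it back (C-III), help it at the vessel wall (A-V), or present the particle to receptors for uptake (E). In mice the genes Apoa1, Apoc3, Apoa4 and Apoa5 lie together on chromosome 9, with 2466, 5059 and 25173 bases between neighbours, and Apoe, Apoc1 and Apoc2 lie on chromosome 7 with Apoc4 between the latter. Apoa2 is on chromosome 1, Apob on chromosome 12 and Apom on chromosome 17 (GENCODE annotation of GRCm38), where Apom is 528060 bases from Ager. The members that passed a test lie at chr9:46240696-46243459 (Apoa4, plus strand), chr9:46232933-46235636 (Apoc3, minus strand), chr7:19689481-19692660 (Apoc1, minus strand), chr1:171225054-171226379 (Apoa2, plus strand), chr12:7977648-8016835 (Apob, plus strand) and chr17:35128997-35132050 (Apom, minus strand), each a protein-coding gene, and levels are over all of its exons.

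The upstream sequences of 3 genes are shown because results below turn on them: Apoa4, which was lower with PM, and Apob and Apoa2, which moved in opposite directions in the libraries labelled RageHepKO. Each is the part of the promoter just before the annotated gene start, from RefSeq on GRCm38.p6, plus strand, 5′ to 3′, without bases after that start. Apoa2 has another annotated start further upstream, whose own window ends at chr1:171221563. The Apoa2 stretch shown can therefore be transcribed from that other start. Capitals mark the motifs that were searched on both strands and found (TATAAA, the TATA box, and TGACG, a core of cyclic AMP response elements).
Apoa4, chr9:46240594-46240695: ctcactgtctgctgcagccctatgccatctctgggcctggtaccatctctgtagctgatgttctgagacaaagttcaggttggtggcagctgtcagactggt
Apob, chr12:7977427-7977647: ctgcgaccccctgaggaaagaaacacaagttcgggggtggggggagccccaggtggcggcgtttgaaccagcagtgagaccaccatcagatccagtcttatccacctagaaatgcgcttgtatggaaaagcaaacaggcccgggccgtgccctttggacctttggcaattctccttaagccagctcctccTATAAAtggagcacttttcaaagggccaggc
Apoa2, chr1:171224804-171225053: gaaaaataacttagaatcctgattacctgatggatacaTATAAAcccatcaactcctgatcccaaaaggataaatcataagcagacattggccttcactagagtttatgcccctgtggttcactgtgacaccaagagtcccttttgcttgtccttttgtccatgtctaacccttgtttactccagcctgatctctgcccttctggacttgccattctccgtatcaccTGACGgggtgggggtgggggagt
Of 32817 promoter windows of 300 bases in the same table, 13.6% held TATAAA and 20.8% held TGACG. The other motifs searched were AGGTCA, a core motif of nuclear receptors, in 16.3% of windows, and CAAAGTCCA, a motif of HNF4, in 0.475%. In Apob TATAAA began 60 bases before the RefSeq start, and in Apoa2 the positions from that start were -212 for TATAAA and -23 for TGACG. Of the 10 genes, 8 had a window in the table, and Apoc1 and Apoc3 had none. Windows of Apoa5 and Apoe also held TATAAA, that of Apoc2 held AGGTCA and TGACG, the window of another annotated start of Apoa2 held AGGTCA, and CAAAGTCCA was in none of the 8 genes' windows. A match is a run of letters and not a binding site.

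The 10 genes span a wide range of levels. Apoe was 24232 to 83268 scaled FPKM and ranked between 1 and 3 among all genes in every library, and Apoa1 was 9102 to 28146 and ranked between 2 and 8. Apoa2, Apoa4, Apoa5, Apoc1 and Apoc3 had medians over all libraries of 5459.9, 1417, 1507, 1214 and 1153. Apob, with the longest transcript of the set, had a median of 461, Apoc2 had 146, and Apom had 38.9. Together the 10 genes took 14.5% ± 3.66 of summed FPKM in chow livers, 19.8% ± 2.79 in FFD livers, 17.3% ± 3.49 in HiAD livers and 16.3% ± 5.54 in the libraries labelled RageHepKO (SD, n = 3 each), and 15.9% ± 0.709 with PM (SD, n = 2). Without mitochondrial genes in the sum, the share in the libraries labelled RageHepKO was 26.5% ± 6.25 (SD, n = 3), against 20.8% ± 3.36 in HiAD livers (SD, n = 3). Apoe, Apoa1 and Apoa2 made up 87% to 93% of the set's total in the group means. The genes also differed in how much mice of the same group varied. The median coefficient of variation within groups was 8.02% for Apoa1, 11.2% for Apob and 16.8% for Apoa5, but 41.6% for Apoc2 and 59.4% for Apoa4.

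**Figure D1:**
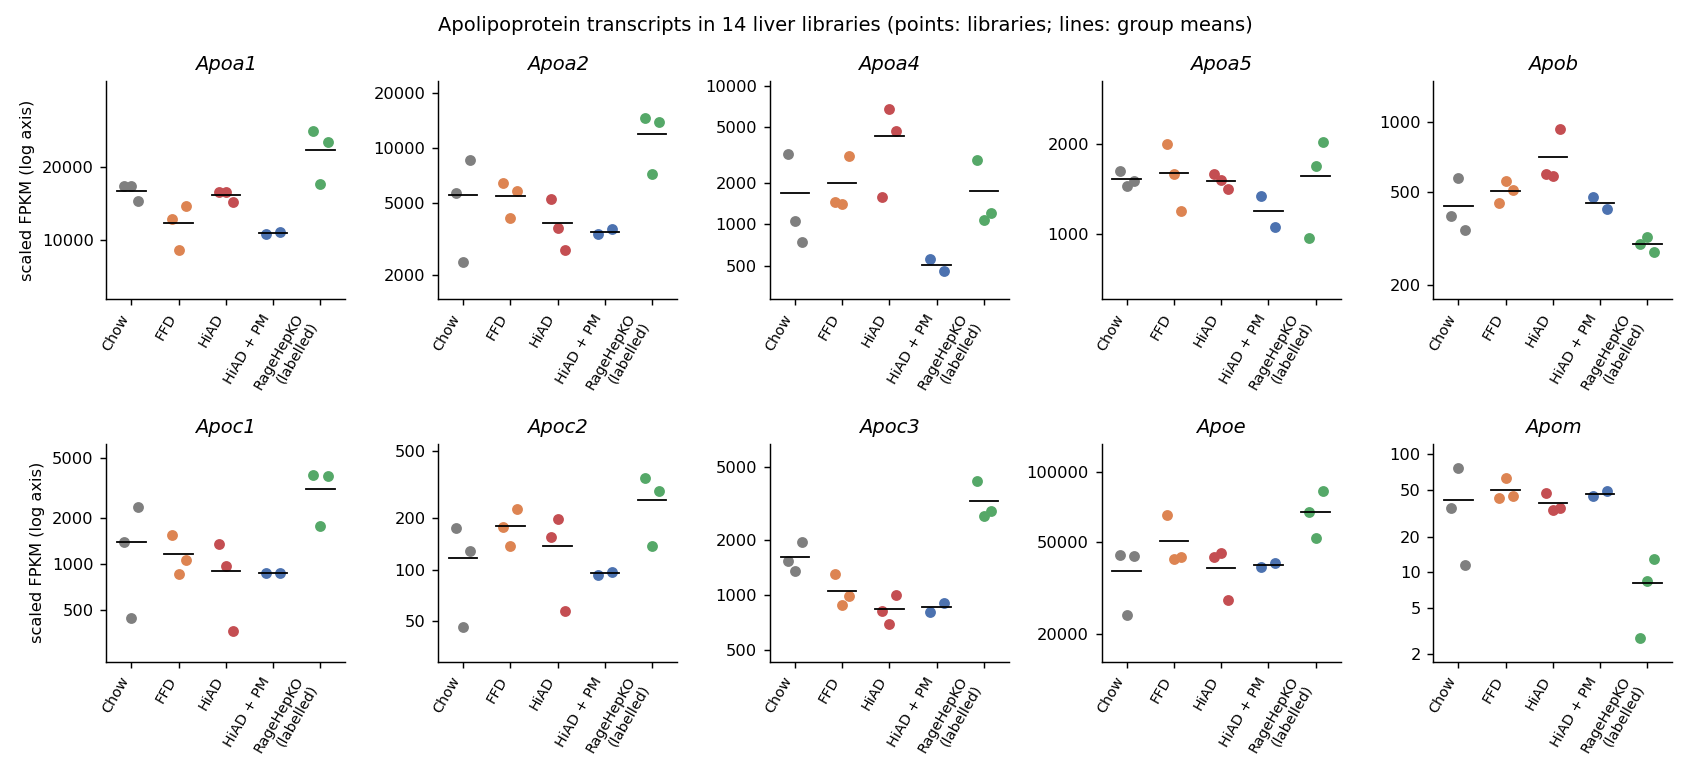
Levels of the 10 apolipoprotein transcripts in scaled FPKM (log axes, which differ between panels) in the 14 libraries, by group, with points for libraries and lines for group means. Apoc3 was highest and Apob was lowest in the 3 libraries labelled RageHepKO, where Apom overlapped with 1 chow library, and Apoa4 was lowest in the 2 libraries with PM.

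None of the 10 members passed the threshold in a comparison of diets, where 0.0661% to 4.62% of all genes did. HiAD against FFD asks what cooking the diet adds, and FFD against chow and HiAD against chow ask what each diet does, the last sharing its libraries with the others. At an adjusted p under 0.05 from limma, 0 of 10 members passed in HiAD against FFD, where 3.1% of the 12110 genes tested did. The counts were 0 of 10 in HiAD against chow, against 4.62% of all genes, and 0 of 10 in FFD against chow, against 0.0661%. At an unadjusted p under 0.05 from limma, the counts were 0 members in HiAD against FFD (16.2% of all genes), 3 in HiAD against chow (20% of all genes) and 1 in FFD against chow (10.1% of all genes). The median log2 fold changes of the 10 members were -0.35, 0.03 and 0.19 in HiAD against FFD, HiAD against chow and FFD against chow, beside 0.02, -0.02 and -0.02 over all genes.

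PM and the label RageHepKO were each compared with the HiAD. In HiAD + PM against HiAD, 1 member passed, as lower, where 6.45% of all genes passed and 3.14% did so as lower. In the libraries labelled RageHepKO against HiAD, 5 members passed, 3 as higher and 2 as lower. There 33.4% of all genes passed, 15.7% as higher and 17.7% as lower (1900 and 2144 genes, but 952 and 3371 with FPKM as deposited and 931 and 3733 when scaled to genes outside the mitochondrial genome), so the share of members that passed has to be read against a background in which a large part of the transcriptome differed. The median log2 fold changes of the members were -0.22 and 0.70, beside 0.01 and 0.00 over all genes. Both comparisons use the same 3 HiAD libraries, as does every comparison but FFD against chow, so an unusual HiAD library enters each of them.

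**Figure D2:**
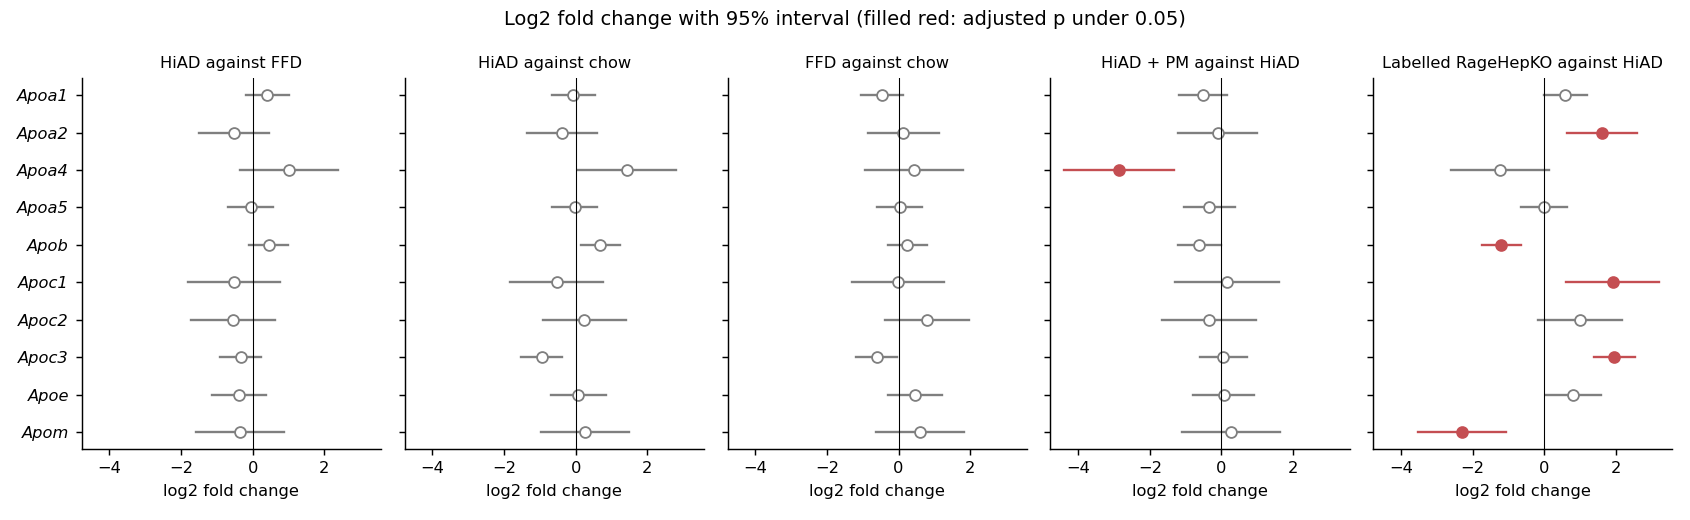
Log2 fold changes (points) with 95% intervals (lines) of the 10 genes in the 5 comparisons, from limma on log2 of scaled FPKM plus 1; filled red points passed at an adjusted p under 0.05. The comparisons of diets hold 0 filled points, HiAD + PM against HiAD holds 1 (Apoa4), and the libraries labelled RageHepKO against HiAD hold 5.

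Among the proteins of HDL, Apoa1 encodes apolipoprotein A-I, the main HDL protein and the activator of the cholesterol-esterifying enzyme LCAT. It was 16581, 16708 and 14437 scaled FPKM in chow livers, 12213, 9102 and 13770.5 in FFD livers and 15723, 15724 and 14281 in HiAD livers. With PM it was 10530.3 and 10791, and in the libraries labelled RageHepKO 28146, 16873 and 25285. Each FFD and PM library lay below each HiAD library, and each library labelled RageHepKO lay above all the others, but none of the 5 differences passed. The log2 fold changes were 0.40 (95% interval -0.20 to 1.001, adjusted p = 0.518 from limma) for HiAD against FFD, -0.51 (-1.18 to 0.16, adjusted p = 0.399) for PM and 0.59 (-0.01 to 1.19, adjusted p = 0.119) for the libraries labelled RageHepKO. The PM difference did pass with sample quality weights (adjusted p = 0.0488), and that of the libraries labelled RageHepKO with no trend in the spread (0.0483).

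Apoa2, the gene of apolipoprotein A-II, another HDL protein, differed more. It was 5674, 2373 and 8625 scaled FPKM in chow livers, 6449.6, 4146 and 5794 in FFD livers, 5246, 3629 and 2747 in HiAD livers and 3361 and 3597 with PM. The libraries labelled RageHepKO held 14620.3, 7241 and 13927, all above the HiAD libraries and overlapping only with the highest chow library. Apoa2 was higher in them than in HiAD livers by 1.61 on the log2 scale (standard error 0.45, adjusted p = 0.0175 from limma). The call was lost without HiAD B3 (adjusted p = 0.0705), RA19 (0.0525) or RA21 (0.0545), and with FPKM as deposited or scaled to genes outside the mitochondrial genome (0.0679 and 0.0599). In a bulk sample, a change in the number of hepatocytes and a change in the RNA of each cannot be told apart.

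Apom encodes a lipocalin of HDL that carries sphingosine-1-phosphate, and it had the largest ratio between libraries of all 10 genes, with 27.8 from the lowest to the highest. It was 35.4, 77.1 and 11.5 scaled FPKM in chow livers, 42.5, 63.2 and 44.5 in FFD livers, 47.1, 34.1 and 34.9 in HiAD livers and 44.3 and 48.7 with PM. The libraries labelled RageHepKO had 2.78, 8.38 and 13.1. They lay below every library of the FFD, HiAD and PM groups and overlapped with 1 chow library. Apom fell by 2.31 on the log2 scale against the HiAD, with a standard error of 0.57 and an adjusted p of 0.00922 from limma, and it passed under all 26 alternatives of that comparison, with an adjusted p of at most 0.0349. Adding 1 before the logarithm makes this fall smaller than the ratio of the values.

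Apob, the protein on which VLDL is built, was 393, 571 and 344 scaled FPKM in chow livers and 447, 559 and 509.9 in FFD livers. It was 597, 583 and 935 in HiAD livers, above every chow, FFD and PM library, then 475 and 424 with PM, while the libraries labelled RageHepKO had 299, 321 and 277, all below every other library. There Apob fell by 1.20 on the log2 scale against the HiAD, with a standard error of 0.25 and an adjusted p of 0.00413 from limma, and it passed under all 26 alternatives, with an adjusted p of at most 0.0209. The other comparisons did not pass. The log2 fold change was 0.69 for HiAD against chow (95% interval 0.15 to 1.23, adjusted p = 0.144 from limma), 0.45 for HiAD against FFD (-0.09 to 0.99, adjusted p = 0.41) and -0.62 for PM (-1.22 to -0.01, adjusted p = 0.244). HiAD against chow passed without chow R2 (adjusted p = 0.0411), when scaled to genes outside the mitochondrial genome (0.0434) or with sample quality weights (0.0167), and PM against HiAD passed with the weights (0.0465). With a trend on exon length removed, as described below, HiAD against chow was 0.53 (adjusted p = 0.195 from limma). HiAD against FFD was then 0.26 (adjusted p = 0.62). These levels do not tell the full-length transcript from the form edited to encode apolipoprotein B-48, which mouse liver also makes.

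Apoa4 gave the only call with PM. Apolipoprotein A-IV is a protein of intestine and liver carried on chylomicrons and HDL, and its gene is known to respond to lipid loading of mouse liver. It was 3201, 1053 and 749 scaled FPKM in chow livers, 1443, 1389.9 and 3114 in FFD livers, 1584, 6769 and 4700.0 in HiAD livers, 557 and 460.2 with PM, while the libraries labelled RageHepKO had 2915, 1072 and 1205. HiAD B2 and B3 were the highest of all 14 libraries and the 2 PM libraries the lowest, while HiAD B1 lay within the range of the FFD and chow libraries. Apoa4 fell by 2.86 on the log2 scale with PM (standard error 0.71, 95% interval -4.39 to -1.33, adjusted p = 0.0313 from limma). It did not pass without HiAD B2 (log2 fold change -2.43, adjusted p = 0.0955) or HiAD B3 (-2.69, 0.103), or with no filter on low values (0.0885). Without PM R18 (-3.00, 0.156) or PM R19 (-2.73, 0.248) it did not pass either, but there the arm had 1 library and its spread was taken to be that of the other groups, as in every fit without a PM library. The log2 fold changes of the HiAD against chow (1.44, 95% interval 0.07 to 2.81, adjusted p = 0.223) and against the FFD (1.004, -0.36 to 2.37, adjusted p = 0.475) did not pass. The libraries labelled RageHepKO had a log2 fold change of -1.25 against the HiAD (-2.62 to 0.12, adjusted p = 0.146), and that difference passed only without HiAD B1 (-1.86, adjusted p = 0.0468).

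Because Apoa4 is also a gene of enterocytes, markers of gut were read beside it. Of 8 enterocyte markers, Lct, Sis, Cdx2 and Alpi were listed at 0 in all 14 libraries. There were 2 that reached 1 scaled FPKM, Fabp2 at 14.9 to 156 and Anpep at 14.4 to 31.5. The part of gut cells in the level of Apoa4 was not tested. The summed level of the 8 was 34.6 to 104.3 for chow, 81.8 to 141 for the FFD, 65.2 to 90.8 for the HiAD, 60.4 to 64.1 for PM and 126 to 183 in the libraries labelled RageHepKO. A transcript antisense to Apoa4, Gm47528, shares 1337 bases with it and had a median of 7.24 scaled FPKM. The sources used here do not say whether the counting used strand, so reads of the 2 genes cannot be told apart.

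Apoa5, its neighbour on chromosome 9, encodes apolipoprotein A-V, which promotes triglyceride clearance by lipoprotein lipase, and had the smallest ratio of the set between its highest and lowest library, 2.09. It was 1621, 1448 and 1504 scaled FPKM in chow livers, 2001, 1578 and 1191 in FFD livers, 1582, 1509 and 1406 in HiAD livers, 1337 and 1053 with PM, while the libraries labelled RageHepKO had 969, 1681 and 2021. Only the PM libraries lay apart from the HiAD libraries, with a log2 fold change of -0.34 (95% interval -1.04 to 0.37, adjusted p = 0.642 from limma). The libraries labelled RageHepKO differed from the HiAD by -0.01 on the log2 scale (-0.64 to 0.62, adjusted p = 0.987), an interval that leaves room for a change of either sign.

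Apoc3, a gene of the same cluster whose product inhibits lipoprotein lipase and remnant uptake, showed the difference with the smallest adjusted p of the set. It was 1537, 1357 and 1943 scaled FPKM in chow livers, 1311, 878 and 982 in FFD livers, 815, 689 and 995 in HiAD livers and 810.3 and 907 with PM. The libraries labelled RageHepKO held 4213, 2694 and 2893, above all the others. Against the HiAD this was 1.96 on the log2 scale (standard error 0.27, adjusted p = 0.000511 from limma), and it passed under all 26 alternatives, with an adjusted p of at most 0.00707. The FFD and HiAD libraries all lay below the chow libraries, by -0.61 (95% interval -1.19 to -0.04, adjusted p = 0.464) and -0.95 (-1.53 to -0.38, adjusted p = 0.0615) on the log2 scale, which did not pass. The HiAD difference from chow did pass without chow R2 (adjusted p = 0.0386), without RA19 (0.0339), without all the libraries labelled RageHepKO (0.0453), with sample quality weights (0.00277) or with no trend in the spread (0.0377). PM libraries overlapped with HiAD libraries (0.06, -0.59 to 0.70, adjusted p = 0.949).

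Apoc1 and Apoc2 lie beside Apoe on chromosome 7. Apolipoprotein C-I slows the uptake of remnants by receptors, and its gene was 1395, 446 and 2376 scaled FPKM in chow livers, 1551, 867 and 1066 in FFD livers, 1361, 980.0 and 368 in HiAD livers, 884 and 876 with PM, while the libraries labelled RageHepKO had 3854, 1786 and 3774. The latter all lay above the HiAD libraries and overlapped with chow. Apoc1 was higher in them than in HiAD livers by 1.91 on the log2 scale (standard error 0.60, adjusted p = 0.0276 from limma). The call was lost without HiAD B3 (1.36, adjusted p = 0.118), RA19 (1.72, 0.0787) or RA21 (1.73, 0.0783), with no filter (0.0805), and with FPKM as deposited or scaled to genes outside the mitochondrial genome (0.0786 and 0.0687).

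Apoc2, the gene of the cofactor that lipoprotein lipase needs, was 175, 45.7 and 129 scaled FPKM in chow livers, 177, 137 and 228 in FFD livers, 155, 199 and 56.6 in HiAD livers, 92.8 and 97.1 with PM, while the libraries labelled RageHepKO had 345, 138 and 290.1. The groups overlapped in all 5 comparisons. The largest log2 fold change was 0.99, for the libraries labelled RageHepKO against the HiAD (95% interval -0.18 to 2.16, adjusted p = 0.175 from limma). Gm44805, a gene model on the same strand that runs through Apoc4, shares 6358 bases with Apoc2 and followed it with a Pearson r of 0.9997 over the 14 libraries, so the level of Apoc2 is uncertain.

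Apoe, the ligand by which remnants bind receptors of the LDL receptor family, was 43903, 24232 and 43656 scaled FPKM in chow livers, 65587, 42296 and 43134 in FFD livers and 43063, 44913 and 28160.3 in HiAD livers. With PM it was 39010.2 and 40540.2, and in the libraries labelled RageHepKO it was 67372, 52238 and 83268, each above every chow, HiAD and PM library. This gave 0.81 on the log2 scale against the HiAD (95% interval 0.05 to 1.57, adjusted p = 0.0923 from limma), which did not pass. It passed without chow R2 (adjusted p = 0.0441) and with no trend in the spread (0.0468). The FFD and the HiAD differed by -0.38 (-1.14 to 0.38, adjusted p = 0.646). Macrophages also express Apoe and Apoc1. The summed level of 13 Kupffer cell and macrophage markers was 127 to 197 scaled FPKM in HiAD livers, 163 to 354 in chow livers, 289 to 1155 in FFD livers, 317 to 372 with PM and 285 to 521 in the libraries labelled RageHepKO. Of 12 tested, 5 were higher and 1 was lower in the latter than in HiAD livers, beside 15.7% and 17.7% of all genes. In a HiAD library, 12 of the 13 reached 1 scaled FPKM. Unlike the sum, Trem2 and Gpnmb were highest in HiAD livers. They were 0.328 to 1.06 and 0.315 to 1.89 there, and at most 0.252 and 0.134 elsewhere. The part of these cells in the level of Apoe was not tested.

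In the order of group means, the libraries labelled RageHepKO stood first for Apoa1, Apoa2, Apoc1, Apoc2, Apoc3 and Apoe and last for Apob and Apom. Apoa4 and Apob were highest in HiAD livers, and Apoa1, Apoa2, Apoa4, Apoa5, Apoc1 and Apoc2 were lowest with PM. Most neighbours in these orders overlapped. Those that did not were the libraries labelled RageHepKO and chow for Apoa1, Apob and Apoc3, HiAD and FFD for Apoa1 and Apob, chow and FFD for Apoc3, FFD and PM for Apoe, chow and PM for Apoa4, HiAD and PM for Apoa5, and HiAD and the libraries labelled RageHepKO for Apom. Groups without overlap were common among all genes tested. In HiAD against FFD, HiAD against chow and FFD against chow, 2 members each had no overlap, against 30.6%, 25.6% and 17.9% of all genes. There were 4 such members in HiAD + PM against HiAD, where 50% of all genes had no overlap, and 7 for the RageHepKO label against HiAD, where 44% did.

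Ratios of 2 genes within a library do not depend on scaling between libraries. Apoa4 over Apoa1 was 0.0426 and 0.0529 with PM and 0.101 to 0.430 in HiAD livers, without overlap, and 0.0518 to 0.193 in chow livers. Apoc3 over Apoa1, neighbours on chromosome 9, was 0.0438 to 0.0697 in HiAD livers, 0.0769 to 0.0841 with PM, 0.0812 to 0.135 in chow livers and 0.114 to 0.160 in the libraries labelled RageHepKO, so the HiAD libraries lay below the groups of chow, PM and RageHepKO and also below the FFD libraries (0.0713 to 0.107). Apob over Apoa1 was at most 0.0191 in the libraries labelled RageHepKO, against a lowest value of 0.0237 elsewhere. Apom over Apoa1 was at most 0.000517 there and at least 0.000800 elsewhere. Unequal change of Apob, Apom and Apoa1 is thus seen without any scaling, whereas Apoc2 over Apoe, 0.00264 to 0.00512 in the libraries labelled RageHepKO and 0.00201 to 0.00443 in HiAD livers, overlapped. A ratio still holds any trend on exon length, which is 13.9 kb for Apob and 1.24 kb for Apoa1. The part of length in these ratios was not tested.

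**Figure D3:**
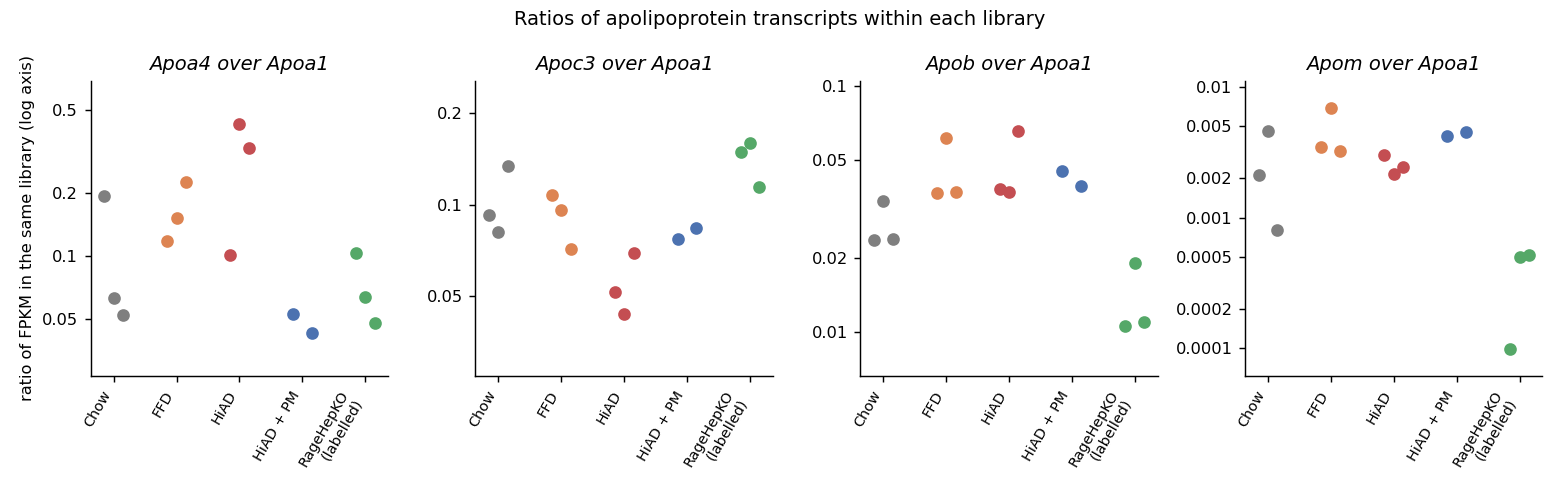
Ratios of FPKM of 2 genes in the same library (log axes), with points for the 14 libraries by group. Apob over Apoa1 and Apom over Apoa1 were lowest in the 3 libraries labelled RageHepKO, Apoc3 over Apoa1 was lowest in HiAD livers, and Apoa4 over Apoa1 was lower with PM than in HiAD livers.

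Values also moved with exon length, which is given here beside the calls. Relative to all libraries, log2 levels changed by -0.18 to -0.05 per doubling of exon length in the libraries labelled RageHepKO and by 0.05 to 0.18 in the HiAD libraries. The change was -0.07 to 0.06 in chow, -0.05 to 0.01 in FFD and 0.09 to 0.11 in PM libraries. In HiAD against chow, the median log2 fold change of all tested genes was -0.17 below 1 kb and 0.14 at 10 kb or longer. In HiAD against FFD it was -0.16 from 1 to 1.5 kb and 0.19 at 10 kb or longer. In the libraries labelled RageHepKO against the HiAD, it was 0.21 below 1 kb, 0.33 from 1 to 1.5 kb, 0.12 from 1.5 to 3 kb and -0.24 at 10 kb or longer. Apoa2 (0.537 kb) and Apoc1 (0.744 kb) are among the shortest members and were higher, and Apob (13.9 kb) is the longest and was lower. In the band of 10 kb or longer, 26.8% of genes passed as lower, and below 1 kb 15.7% passed as higher. Apoc3 and Apom both have an exon length of 1.01 kb, and their log2 fold changes were 1.96 and -2.31. The part of exon length in these differences was not tested beyond the adjustment that follows. With a trend on exon length removed from each library, an alternative chosen after the data were seen, the same 5 members passed, with log2 fold changes of 1.38 for Apoa2, 1.63 for Apoc1, 1.66 for Apoc3, -0.95 for Apob and -2.60 for Apom, and adjusted p-values from limma of 0.0217, 0.0386, 0.00131, 0.00655 and 0.00631. The part of the mitochondrial share in these differences was not tested beyond the scaling to genes outside the mitochondrial genome, under which Apoc3, Apob and Apom passed.

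**Figure D4:**
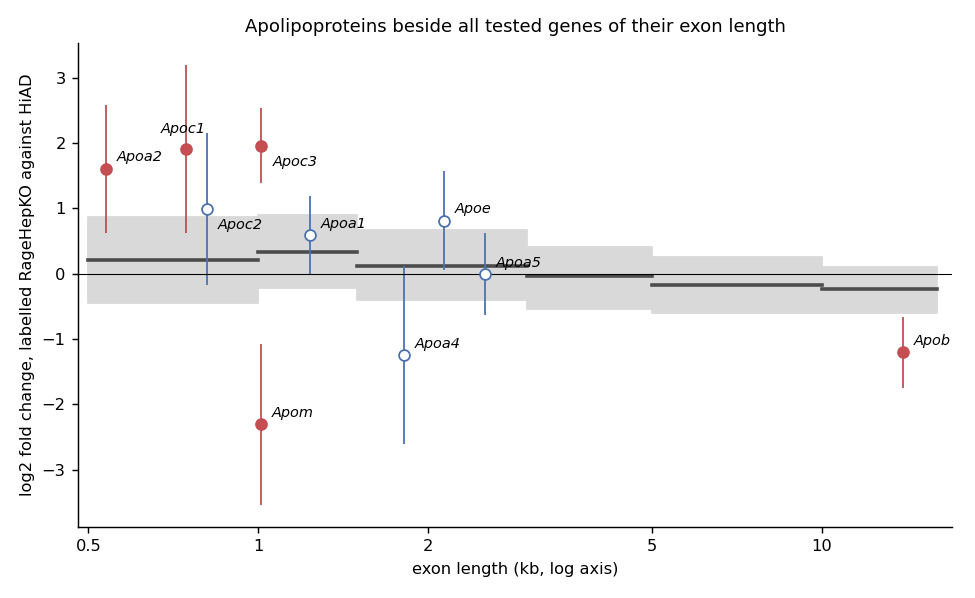
Log2 fold change in the libraries labelled RageHepKO against the HiAD (points, with 95% intervals) by exon length in kb (log axis), with filled red points for an adjusted p under 0.05; grey boxes and dark lines give the quartiles and median of all tested genes in 6 bands of length, the outer bands drawn to the edge of the axis. Apoc3 and Apom, at about 1.01 kb, lie on opposite sides of the grey box, and Apob lies below its own.

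Some members varied together across libraries. As a description over the 14 libraries, which share groups and length trends, the Pearson r of log2 levels was 0.97 for Apoa2 with Apoc1, 0.90 for Apoc1 with Apoe and 0.88 for Apoa2 with Apoe, and it was -0.88 for Apob with Apoc1 and -0.86 for Apoc3 with Apom. Beyond the set, the genes most like Apoa2 were Npepl1, Uqcrq and Stard10 (0.98, 0.97 and 0.96), those most like Apoc3 were Polr2f, Ric8a and Dapk3 (0.98, 0.97 and 0.95) and those most like Apom were Derl1, Gm20518 and Rnf130 (0.98, 0.97 and 0.96). Apoa4 was most like Txnip, Acss3 and Ppfia2 (0.90, 0.90 and 0.88), and Apoa5, with the lowest values, was most like Pym1, Tmem141 and Gm49416 (0.85, 0.83 and 0.81). Stard10 was among the 3 genes most like each of Apoa2, Apoc1 and Apoc2.

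Other apolipoproteins and HDL-associated proteins were read beside the 10 members, and 14 of 20 listed could be tested. In the comparisons of diets, 2 were lower in HiAD against FFD (Apol9b and Saa4), 1 in HiAD against chow (Saa4) and 0 in FFD against chow. Of all 12110 genes tested, 175, 220 and 7 were lower in these comparisons. Apol9b was -2.61 in HiAD against FFD (adjusted p = 0.0262 from limma), a call that 6 alternatives lost, up to an adjusted p of 0.116. In the libraries labelled RageHepKO, 7 were higher than in HiAD livers and 0 were lower, against 15.7% and 17.7% of all genes, and the list had a median of 1.14 on the log2 scale. They included Apoc4, which shares 3341 bases with Gm44805 and is uncertain for the same reason as Apoc2 (2.05, adjusted p = 0.00268 from limma), and Saa4, a constitutive serum amyloid protein of HDL (1.96, adjusted p = 0.000766). With PM 3 were higher and 0 lower than in HiAD livers, with a median of 0.55, beside 401 higher and 380 lower of all 12110 genes tested. Saa4 was 41.2 to 69.7 scaled FPKM in HiAD livers and 142 to 238 in chow livers, a log2 fold change of -1.76 (adjusted p = 0.00465). It was also lower than in FFD livers (-1.18, adjusted p = 0.046), a call that 14 alternatives lost, up to an adjusted p of 0.204. With PM it was 159 and 273 (2.01, adjusted p = 0.00322), and the call was lost without PM R18 (0.065). Apol9b and Apol9a, copies of apolipoprotein L 9 in mice that can share reads and are uncertain one by one, had log2 fold changes of 3.03 and 2.16 with PM and 3.40 and 2.35 in the libraries labelled RageHepKO. The PM calls of both were lost without PM R18 or R19 (up to an adjusted p of 0.179), and that of Apol9a also without HiAD B1 or B3 (0.063 and 0.0696) or with no filter (0.0608).

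Lipoprotein assembly and secretion, a list of 20 genes that were all tested, held 0 calls in the 3 comparisons of diets. With PM 1 was higher, beside 401 of all 12110 genes tested. In the libraries labelled RageHepKO 4 were lower, where 17.7% of all genes were lower and 33.4% passed in either direction. The 4 were A1cf, which with Apobec1 edits the Apob transcript (-1.52, adjusted p = 0.00615 from limma), the coat protein genes Sec23a and Sar1a of vesicles that leave the endoplasmic reticulum (-1.09 and -1.28, the call of Sar1a being lost with sample quality weights at 0.0734), and Tmem41b, a lipid scramblase of that membrane (-0.82). The median of the list there was -0.32. The 1 gene higher with PM was Stx5a, a SNARE of the Golgi (0.98, adjusted p = 0.0284), whose call was lost without any HiAD or PM library (up to 0.217).

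Of 9 genes of triglyceride lipolysis in plasma, 1, Lpl, was higher in HiAD livers than with either other diet. Of all 12110 genes tested, 201 were higher in HiAD against FFD and 340 in HiAD against chow. With PM 2 of the 9 were lower, Lpl and Gpihbp1, beside 380 of all genes. Gpihbp1 was -0.996 there (adjusted p = 0.0417 from limma), a call that 12 alternatives lost. In the libraries labelled RageHepKO 1 of the 9 was lower, Lpl, beside 17.7% of all genes. Lpl, which encodes lipoprotein lipase, the enzyme that Apoc2 and Apoc3 act on, was 0.863 to 2.42 scaled FPKM in chow livers, 6.58 to 7.47 in FFD livers and 23.0 to 113.6 in HiAD livers. Its log2 fold changes for the HiAD were 2.52 against the FFD (adjusted p = 0.00722 from limma) and 4.20 against chow (adjusted p = 0.000211). It was 9.53 and 10.8 with PM and 10.8 to 11.8 in the libraries labelled RageHepKO, with log2 fold changes of -2.04 and -1.88 against HiAD livers (adjusted p = 0.025 and 0.00627). The PM call was lost with no filter (0.0733) and in a fit of the compared groups alone (0.0905). It was also lost without PM R18 (log2 fold change -2.12) or R19 (-1.96). Cd36, a receptor for fatty acids and modified lipoproteins, was 59.9 to 89.5 in HiAD livers, 8.32 to 20.7 in FFD livers, 4.70 to 10.2 in chow livers and 1.91 and 2.65 with PM. Its log2 fold change was 3.13 against chow (adjusted p = 0.00376), 2.43 against the FFD (adjusted p = 0.02) and -4.50 with PM (adjusted p = 0.000612). The difference from the FFD did not pass with no filter (0.0706) or without FFD R28, FFD R31, HiAD B1 or HiAD B3, where the log2 fold change was 2.38, 2.15, 2.43 and 2.28 and the adjusted p at most 0.0961. Adipocytes express both Lpl and Cd36. The summed level of 6 adipocyte markers was 48.9 to 134 for the HiAD, 1.91 to 1.93 for PM, 13.4 to 18.6 for the RageHepKO label, 3.17 to 35.0 for the FFD and 2.65 to 44.9 for chow. Adipoq, Plin1, Lep and Retn were listed at 0 in the 3 HiAD libraries, and Fabp4 reached 0.661 there. The sum was nearly all Cidec, a lipid droplet gene of adipocytes and fatty hepatocytes. The part of adipocytes or other cells in the levels of Lpl and Cd36 was not tested. Mylip, the ubiquitin ligase that degrades LDL receptors, was 7.56 to 9.02 in HiAD livers, 2.85 to 3.75 in FFD livers, 3.08 to 5.09 in chow livers, 2.34 and 2.39 with PM and 1.68 to 2.78 in the libraries labelled RageHepKO, so no other group reached the HiAD libraries. Its log2 fold change for the HiAD was 1.05 against the FFD (adjusted p = 0.0109, not passed without HiAD B3 or FFD R28, at 0.0563 and 0.0588) and 0.86 against chow (adjusted p = 0.0243, a call that 7 alternatives lost, up to 0.229). Against the HiAD, Mylip fell by 1.44 with PM and by 1.45 in the libraries labelled RageHepKO (adjusted p = 0.00209 and 0.000454). Of 12 tested genes of receptors and clearance, 1 was higher and 6 were lower in the latter (15.7% and 17.7% of all genes), with Lrp6, Sdc1 and Lrp5 at -1.16, -1.62 and -1.45 and adjusted p-values of at most 0.00416.

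Of 14 genes of HDL formation and remodelling, 1 was higher and 3 were lower in the libraries labelled RageHepKO. Of all genes, 33.4% passed there, 15.7% as higher and 17.7% as lower. Abca1, the exporter that loads lipid on apolipoprotein A-I, was 17.3 to 24.5 scaled FPKM in HiAD livers, 6.76 to 13.7 in chow livers and 9.96 to 11.6 in the libraries labelled RageHepKO. HiAD against chow gave 0.96 on the log2 scale (adjusted p = 0.0248 from limma, a call that 7 alternatives lost, up to 0.27), and the libraries labelled RageHepKO gave -0.85 against the HiAD (adjusted p = 0.0108). Lipg, endothelial lipase, was -1.23 there (adjusted p = 0.00708). Of 33 tested transcription factors known to act on apolipoprotein genes, 6 were higher and 8 lower there (15.7% and 17.7% of all genes), with a median of -0.06. Hnf4a, a nuclear receptor that drives many of these genes in liver, was 115 to 139 scaled FPKM in HiAD livers and 48.9 to 56.6 in the libraries labelled RageHepKO (-1.30, adjusted p = 0.00204), and Foxo1 was also lower (-1.35, adjusted p = 0.00421). Nr1h3, which encodes the oxysterol receptor LXR alpha, and Mlxipl, which encodes the glucose sensor ChREBP, were higher (1.002 and 2.54, adjusted p = 0.0012 and 0.00265). With PM 3 of the 33 were higher and 0 lower, beside 401 and 380 of all 12110 genes tested. Xbp1, a factor of the unfolded protein response, was 155 and 186 with PM and 37.7 to 50.7 in HiAD livers (1.94, adjusted p = 0.000272). Onecut1 was 2.04 (adjusted p = 0.0058) and Mlxipl 2.41 (adjusted p = 0.0204). The call of Onecut1 was lost without PM R19 (log2 fold change 1.75). That of Mlxipl was lost with no filter (0.0633) and without HiAD B2 or B3 (0.0524 and 0.0709). It was also lost without PM R18 (log2 fold change 2.46) or R19 (2.35).

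Genes listed beside the members did not all follow them. Beside the cluster of Apoa1 to Apoa5 on chromosome 9, 4 of 10 tested genes were lower and 0 were higher in the libraries labelled RageHepKO, where Apoc3 was higher and where 15.7% of all genes were higher and 17.7% lower. Next to Apoe, Apoc1 and Apoc2, 1 of 7 tested genes was higher and 0 lower. In the list around Apom on chromosome 17, 10 of 20 tested genes were higher and 1 was lower, where Apom was lower. That list is wide, and the genes higher include Ager, 528060 bases from Apom. The medians of these lists were -0.35, 0.12 and 0.77 on the log2 scale.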

How the data were processed

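Liver RNA was sequenced in 14 libraries of 5 groups, which were assigned by the sample labels, with 0 unmapped columns. Though the table is named for raw counts, its values are not whole and, multiplied by exon length in kilobases, sum to 901084 to 993318 in each library, so they were taken as FPKM made by the authors, a unit inferred from the values. By the methods, reads were mapped to GRCm38, annotated with GENCODE M18 and handled with Dropseq tools. The sources used here do not say how FPKM were made from counts. Depth was estimated only from the spacing of low values, with exon lengths from a later GENCODE release of GRCm38, and the precision of a value was taken from the spread between libraries. No source used here ties libraries to litters or batches, and the p-values measure the spread between these libraries.

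Of 55583 entries, 27 named by a date and 129 repeats were removed. Scaling between libraries used the mean of log ratios after trimming 30% at each end, over 6522 genes that reached 1 FPKM in all libraries. A gene entered the test if it reached 1 scaled FPKM in 2 or more libraries (12110 genes), and limma was run on log2 of scaled FPKM plus 1 (mean-variance trend, robust spread), in a fit of 5 group means to the 14 libraries, two-sided, with Benjamini-Hochberg adjustment over all of these genes. The tests were first tried on simulated data. The members and the gene lists were chosen with earlier results of these data known. The genes named were the 10 members, Ager, up to 4 genes of each list per comparison that passed with the smallest p, and the 3 genes most like each member by Pearson r. Of the genes so chosen, those described are examples.

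The alternatives were other scalings, pseudocounts of 0.1 and 0.5, other filters, sample quality weights, a spread with no trend, fits of fewer groups, leaving out each library in turn, a replicate block for chow and HiAD and, added after the data were seen, the removal of a trend on exon length (loess, span 0.3). Tests were run in R (version 4.3.3) with limma (version 3.58.1) and data.table (version 1.17.8), and tables and figures were made in Python (version 3.11.15) with pandas (version 2.3.3), numpy (version 2.4.6) and matplotlib (version 3.10.9). Protein and imaging data were not analysed here.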

Additional observations from a re-analysis of the deposited data

How the results depend on the processing

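Over 28 alternatives fixed at the start and 1 chosen after the data were seen, of which 14 left out a library, the 50 results of single members gave 1350 values. Of these, 1320 kept their side of the threshold, 16 lost a call, 14 gained one and 0 changed from a call in one direction to a call in the other. Among 1193 values of members that had not passed, 49 changed sign without passing, the largest at 0.516 on the log2 scale.

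In HiAD against chow the 0 members that passed became 1 when scaled to genes outside the mitochondrial genome, 2 with sample quality weights, 1 with no trend in the spread, 1 without the libraries labelled RageHepKO, and 0 to 2 with a library left out. In HiAD + PM against HiAD the 1 became 0 with no filter, 3 with sample quality weights, and 0 to 1 with a library left out. In the libraries labelled RageHepKO against HiAD the 5 became 3 with FPKM as deposited and 3 when scaled to genes outside the mitochondrial genome, 4 with no filter (without Apoc1), 7 with no trend in the spread (with Apoa1 and Apoe), and 3 to 6 with a library left out. Relative to the scaling used, genes outside the mitochondrial genome as the scale moved log2 fold changes of all genes by about -0.43 in that comparison, 0.22 in HiAD against chow and 0.13 in FFD against chow, and FPKM as deposited moved them by about -0.37, 0.12 and 0.21. Over all genes, the calls were 143 to 1139 instead of 376 in HiAD against FFD, 70 to 2380 instead of 560 in HiAD against chow, 2 to 536 instead of 8 in FFD against chow, 137 to 3109 instead of 781 with PM and 2579 to 4664 instead of 4044 for the RageHepKO label. Higher and lower calls, 340 and 220 in HiAD against chow, were 519 and 177 with FPKM as deposited and 819 and 181 when scaled to genes outside the mitochondrial genome. In HiAD against FFD, 201 and 175 became 300 and 158 under the latter, and in FFD against chow, 1 and 7 became 10 and 9 under the former. HiAD against FFD and FFD against chow held 0 members under all of their alternatives. The cause of these changes was not tested.

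Chow and HiAD share the replicate numbers 1, 2 and 3, but same-numbered libraries did not deviate together (correlations of 0.0359, -0.0868 and -0.0537). With the replicate block, in a fit of these 6 libraries, HiAD against chow held 0 members and 70 of all genes instead of 560. The precision of each value is limited by 2 or 3 mice per group, and that of Apom in library RA19 also by depth.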
